A study of Mus musculus with 7 samples.

Results

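The NMDA and kainate receptor subunits were followed in the cerebral cortex of mice lacking the creatine transporter. The 10 genes were taken by symbol from the deposited expression table, which lists 24346 genes, and comprise the NMDA subunits *Grin1*, *Grin2a*, *Grin2b*, *Grin2c*, *Grin2d* and *Grin3a* and the kainate subunits *Grik2*, *Grik3*, *Grik4* and *Grik5*. Bulk RNA-seq was performed on 7 male mice on a C57BL/6J background at postnatal day 100, with 4 CrT-/y animals and 3 CrT+/y animals. CrT-/y animals were hemizygous for a deletion of internal exons of *Slc6a8*, the X-linked creatine transporter gene, in every cell of the body, and CrT+/y animals were their wild-type littermates. All were killed in the light phase without any treatment, and the whole dissected cortex was sequenced. Values are FPKM, sequenced fragments scaled to exon length and to the mapped reads of the library, and a difference is the CrT-/y mean minus the CrT+/y mean of log2(FPKM + 0.1) unless another quantity is named.

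NMDA receptors are glutamate-gated channels built around the obligatory subunit encoded by *Grin1*, together with subunits of the *Grin2* and *Grin3* genes that set the kinetics, the magnesium block and the calcium entry. They bind glutamate and a co-agonist, glycine or D-serine, and are best known in the cortex for synaptic plasticity and for drive onto interneurons. Kainate receptors modulate transmitter release and excitability at both excitatory and inhibitory synapses, with *Grik2* and *Grik3* encoding subunits that form channels on their own and *Grik4* and *Grik5* encoding high-affinity subunits that need such a partner.

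The family descends from common ancestors, which bears on whether a read can be assigned to one subunit. A stretch of 9 residues in the third membrane segment, which lines the channel gate, has the same amino acids in 9 of the 10 proteins, *Grin3a* being the exception. The 27 coding bases of that stretch are shown 5′ to 3′ for 6 subunits from their transcripts in the GENCODE annotation of GRCm38, with capitals marking bases that differ from *Grin1*.
Grin1: tcctacactgccaacctggcagccttc
Grin2a: AGTtacacAgccaacctggcTgccttc
Grin2c: AGctacacGgccaaTctggcagccttc
Grik2: tcGtaTacCgcTaacctAgcCgccttT
Grik3: tcctacacGgccaacctggcTgccttc
Grik5: tcctacacGgccaacctggcTgccttc

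In *Grin1* the stretch begins at base 2170 of the transcript and spans residues 646 to 654. *Grik3* and *Grik5* had the same 27 bases, whereas *Grik2* differed from *Grin1* at 7 of them. Over whole transcripts, the longest identical run between subunits was 46 bases, shared by *Grik2* and *Grik3*. With up to 2 mismatches the longest was 62 bases, between *Grik2* and *Grik1*, a kainate subunit outside the 10. Both are shorter than the 150-base reads.

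The genes lie on several chromosomes (GRCm38, the build called mm10 in the study). *Grin1* is at chr2:25291181-25319187 with 20 exons, and an antisense gene, *Grin1os*, lies inside it on the opposite strand. *Grin2a* is at chr16:9567898-9995560, *Grin2b* at chr6:135713233-136173511 and *Grin2c* at chr11:115249169-115267243. *Grin2d* is at chr7:45831883-45878378 and *Grin3a* at chr4:49661611-49845744. Among the kainate subunits, *Grik2* is at chr10:49094833-49788766, *Grik3* at chr4:125490700-125714173, *Grik4* at chr9:42518135-42944493 and *Grik5* at chr7:25009849-25072346. Only *Grik3* is on the plus strand. The median annotated transcript of the 10 genes has 6659 bp, against 3087 bp for the tested genes.

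The targeted gene was read first as a check of the labels. *Slc6a8* measured 12.4, 14.9, 14.7 and 15.7 FPKM in CrT-/y animals 0 to 3 and 32.3, 29.6 and 28.0 FPKM in CrT+/y animals 1 to 3. Every CrT-/y value was below every CrT+/y value, a fall to 48.2% (95% interval 42.0 to 55.2%, limma adjusted p = 0.0024), while the exons outside the deletion can still give reads. The table holds no read numbers, so the depth is unknown from it. Between 17207 and 17821 genes were above 0 in each animal. Within a genotype, the lowest correlation of log2 values between animals was 0.986 in CrT-/y and 0.982 in CrT+/y.

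The levels of the subunits spanned a wide range and kept nearly the same order in all animals. *Grin1* was highest, at 167 FPKM on average over the 7 animals (SD 15.0), followed by *Grik5* at 74.4 FPKM (SD 5.17), and the ranges of these genes overlapped neither each other nor those of any lower subunit. *Grin2a* (23.2 FPKM) and *Grin2b* (21.6 FPKM) came next, and although *Grin2a* was above *Grin2b* in 7 of 7 animals their ranges overlapped. *Grik3* at 17.8 FPKM, *Grik2* at 16.2 FPKM and *Grin2c* at 12.5 FPKM followed. *Grik3* was above *Grik2* in 6 of 7 animals, as was *Grik2* above *Grin2c*, with overlapping ranges.

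At the lower end, *Grin3a* averaged 8.65 FPKM and *Grik4* 7.68 FPKM, with *Grin3a* the higher of the pair in only 5 of 7 animals, so this order is not set beyond the spread. *Grin2d* was the lowest of the 10 genes at 4.96 FPKM, below *Grik4* in every animal without overlap. The remaining subunits of the families were lower still: *Grik1* averaged 4.26 FPKM, and *Grin3b* 0.156 FPKM, too low to be tested. Because FPKM is scaled to exon length, these levels can be set against one another, within the limits of the annotation used by the authors.

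**Figure D1:**
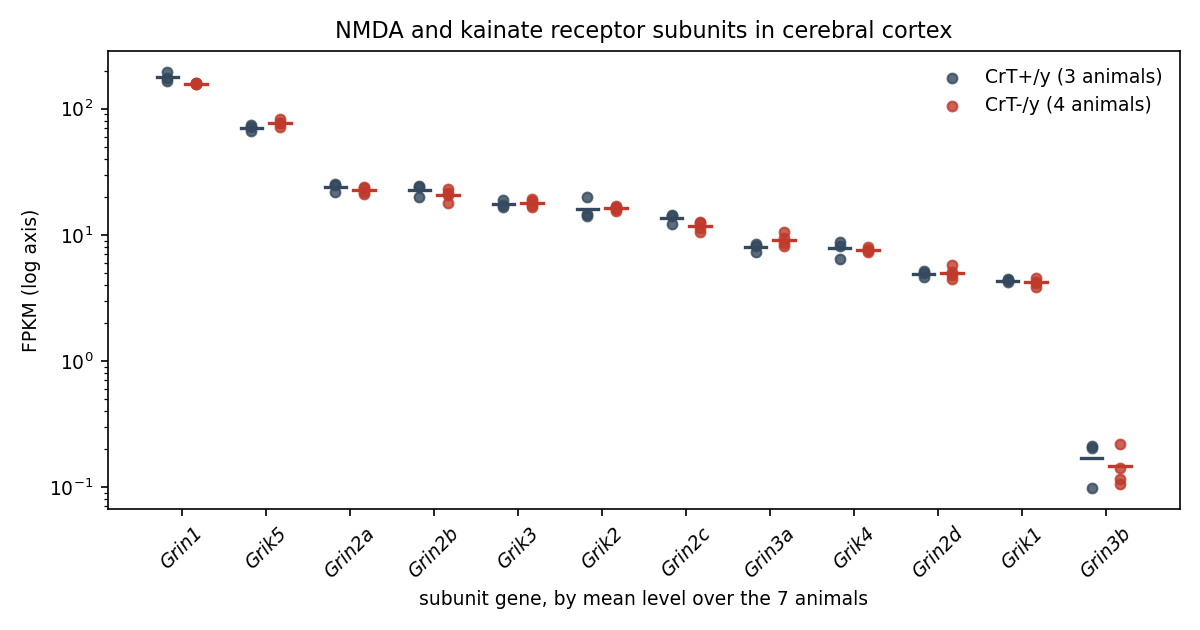
FPKM on a log axis for the 12 NMDA and kainate subunit genes, ordered by their mean over the 7 animals. Points are animals (CrT+/y left, CrT-/y right) and bars are group means. *Grin1* lies between 156 and 197 FPKM and *Grik5* between 67.1 and 83.5 FPKM, above all others, and *Grin3b* lies near the floor in both genotypes.

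The comparison between genotypes asks whether loss of the creatine transporter goes with another level of the subunits. By limma, 0 of the 10 subunits passed an adjusted p of 0.1, the threshold used in the study, beside 10.1% of the 12988 genes tested. Among all tested genes 7.25% were called lower and 2.9% higher in CrT-/y animals. At an unadjusted p under 0.05 there were 2 subunits, *Grin1* and *Grin2c*, both lower in CrT-/y animals, beside 25.0% of all tested genes. The signs split evenly, with 5 subunits lower and 5 higher. Their median difference was -0.0026, against -0.033 over all tested genes. The 6 NMDA subunits had a median of -0.11, with 4 lower, and the 4 kainate subunits a median of 0.024, with 1 lower. With a correction for transcript length, the median of the 10 subunits was 0.062, against 0.0021 over all tested genes. Then 4 subunits were lower, *Grin1* (-0.13), *Grin2a* (-0.0028), *Grin2b* (-0.030) and *Grin2c* (-0.15), and 6 were higher.

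*Grin1* measured 160, 159, 156 and 156 FPKM in CrT-/y animals, against 197, 176 and 166 FPKM in their CrT+/y littermates. All CrT-/y values were below all CrT+/y values, the only subunit of the 10 for which the genotypes did not overlap. Such a separation was seen in 15.0% of tested genes with CrT-/y lower, and in 6.57% with CrT-/y higher, where no subunit was found. The difference was -0.19 (SE 0.064, 95% interval -0.33 to -0.041), or 87.9% of the CrT+/y level (79.6 to 97.2%). It did not pass the test over all genes (limma, adjusted p = 0.12). The 4 CrT-/y animals lay close together, with a coefficient of variation of 1.35%, and the 3 CrT+/y animals spread by 8.76%. Without CrT+/y animal 3, the lowest of its group, the difference was -0.24 and passed (limma, adjusted p = 0.023). It also passed with limma's array weights, at -0.21 (adjusted p = 0.067). Without CrT+/y animal 1, the highest of its group, it was -0.12 (adjusted p = 0.28), and in none of the remaining alternatives did it pass. Without CrT+/y animal 3, the count of all genes called rose from 941 lower and 377 higher to 2394 lower and 1342 higher. Without CrT+/y animal 1 it fell to 167 lower and 80 higher.

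*Grin1os*, the antisense gene within *Grin1* (chr2:25291220-25298925), shares 1307 exon bases with it and was looked at after its values were seen. It measured 4.62, 4.22, 4.43 and 4.08 FPKM in CrT-/y animals and 3.83, 3.51 and 2.94 FPKM in CrT+/y animals. The genotypes did not overlap, in the direction opposite to *Grin1*, as was seen in 6.57% of tested genes with CrT-/y higher. The difference was 0.34 (SE 0.10, limma adjusted p = 0.100061), just short of the threshold. Whether the counting used strand is not given in the sources used here, so reads of the shared bases cannot be told apart between the genes.

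The *Grin2* subunits distinguish NMDA receptor types, *Grin2a* and *Grin2b* being those of most cortical principal neurons. *Grin2a* measured 21.8, 21.0, 24.1 and 23.3 FPKM in CrT-/y animals and 21.9, 24.8 and 25.2 FPKM in CrT+/y animals. *Grin2b*, the subunit that prevails early in development, measured 21.5, 17.8, 23.1 and 20.6 FPKM in CrT-/y animals and 19.8, 24.6 and 24.0 FPKM in CrT+/y animals. Both overlapped between genotypes. The difference was -0.087 for *Grin2a* (95% interval -0.25 to 0.075, limma adjusted p = 0.48) and -0.13 for *Grin2b* (-0.36 to 0.094, adjusted p = 0.44). For *Grin2b*, levels from 77.7 to 106.7% of CrT+/y lie within that interval.

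The ratio of *Grin2b* to *Grin2a*, a common measure of receptor maturation, does not depend on the scaling of the animals to each other. On the log2 scale it was -0.13 ± 0.10 (SD, n = 4) in CrT-/y animals and -0.078 ± 0.067 (SD, n = 3) in CrT+/y animals. The difference of -0.048 was within the spread (exact permutation test over 35 regroupings, two-sided, p = 0.51, adjusted over the 2 ratios tested p = 0.80). The smallest p this design allows is 0.029.

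*Grin2c*, in the cortex found in astrocytes and some interneurons as well as in principal cells, measured 12.7, 10.4, 12.4 and 11.2 FPKM in CrT-/y animals and 14.2, 14.2 and 12.2 FPKM in CrT+/y animals. CrT-/y animals 0 and 2 lay just above CrT+/y animal 3, so the genotypes overlapped. The difference was -0.21 (SE 0.089, 95% interval -0.41 to -0.011, limma adjusted p = 0.18), or 86.4% of the CrT+/y level. Without CrT+/y animal 3 it was -0.29 and passed (adjusted p = 0.054), the only one of 21 alternatives in which it did, over which the adjusted p reached 0.40.

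*Grin2d*, expressed mostly by interneurons, measured 4.79, 5.04, 4.46 and 5.71 FPKM in CrT-/y animals and 5.13, 4.94 and 4.60 FPKM in CrT+/y animals. The CrT+/y range lay within the CrT-/y range. The difference was 0.027 (95% interval -0.19 to 0.24, limma adjusted p = 0.89).

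*Grin3a* encodes a subunit that lowers calcium entry and magnesium sensitivity. It measured 8.55, 8.09, 10.5 and 9.51 FPKM in CrT-/y animals and 7.32, 8.40 and 8.22 FPKM in CrT+/y animals. CrT-/y animals 0, 2 and 3 were above all CrT+/y animals, and animal 1 was not. It had the largest positive difference of the 10 subunits, 0.19 (SE 0.098, 95% interval -0.029 to 0.41), which did not pass (limma, adjusted p = 0.25).

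Summed over the 6 subunits, NMDA receptor FPKM ran from 221 to 230 in CrT-/y animals and from 240 to 266 in CrT+/y animals. The sums did not overlap between genotypes. They were not tested, and 15.0% of single tested genes were separated with CrT-/y lower. *Grin1*, which did not overlap either, made up 67.6 to 71.8% of the sum in CrT-/y and 69.1 to 74.2% in CrT+/y animals. *Grin1* per unit of the 4 *Grin2* genes was 2.43 to 2.92 in mutants and 2.52 to 3.22 in wild-type littermates, which overlap. Within the *Grin2* pool, *Grin2a* held 35.8 to 38.7% in CrT-/y and 35.9 to 38.3% in CrT+/y animals. *Grin2b* held 32.8 to 36.0% and 32.4 to 36.3%, and *Grin2c* 18.5 to 20.9% and 18.4 to 23.3%, respectively. *Grin2d* held the rest, 6.96 to 9.38% in CrT-/y and 6.98 to 8.40% in CrT+/y animals. The composition of the pool thus overlapped between genotypes for each of its subunits.

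**Figure D2:**
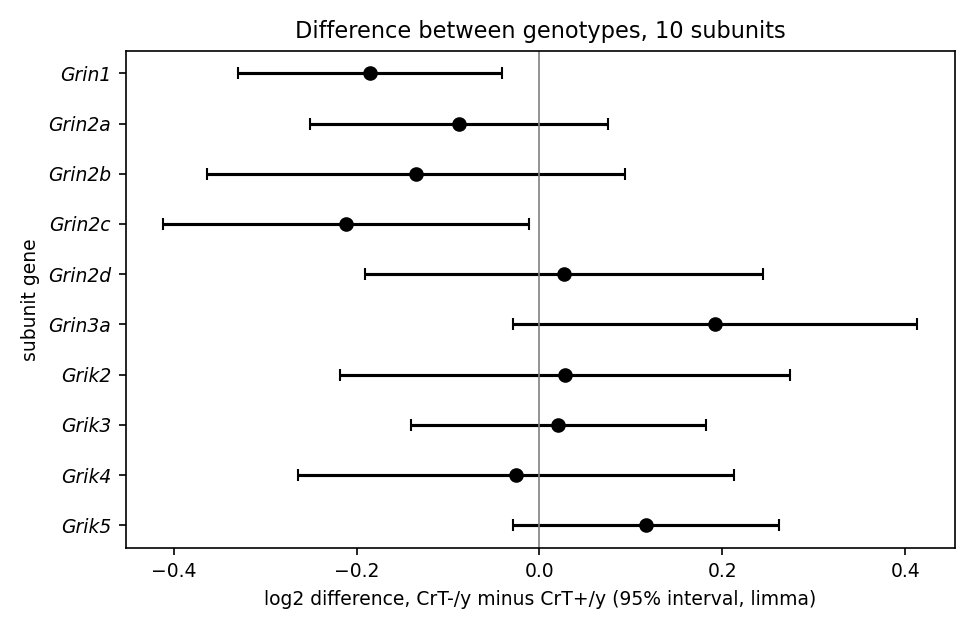
Difference between genotypes for each of the 10 subunits, as log2(FPKM + 0.1) in CrT-/y minus CrT+/y, with the 95% interval from limma. *Grin1* and *Grin2c* have intervals below 0 (-0.33 to -0.041 and -0.41 to -0.011) and the other 8 include 0. These intervals are not adjusted for the number of genes, and no subunit passed an adjusted p of 0.1.

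Of the kainate subunits, *Grik5*, which encodes the high-affinity subunit most widely expressed in forebrain, was the most abundant. It measured 76.5, 83.5, 76.5 and 71.4 FPKM in CrT-/y animals and 73.7, 67.1 and 71.9 FPKM in CrT+/y animals. CrT-/y animals 0, 1 and 2 were above all CrT+/y animals, and animal 3 was not. The difference was 0.12 (SE 0.065, 95% interval -0.028 to 0.26) and did not pass (limma, adjusted p = 0.29).

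*Grik2* measured 16.6, 16.8, 16.1 and 15.5 FPKM in CrT-/y animals and 14.1, 19.8 and 14.5 FPKM in CrT+/y animals. The CrT-/y values lay inside the CrT+/y range, with CrT+/y animal 2 the highest of all 7. Its coefficient of variation was 3.53% in CrT-/y and 19.6% in CrT+/y animals. The difference was 0.028 (95% interval -0.22 to 0.27, limma adjusted p = 0.90). Without CrT+/y animal 2 it was 0.18 (adjusted p = 0.15).

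*Grik4*, the other high-affinity subunit, measured 7.52, 7.32, 7.51 and 8.01 FPKM in CrT-/y animals and 8.19, 6.39 and 8.82 FPKM in CrT+/y animals. Here too the CrT-/y values lay within the CrT+/y range, but CrT+/y animal 2 was the lowest of the 7. The coefficient of variation was 3.89% and 16.2%, respectively. The difference was -0.026 (95% interval -0.26 to 0.21, limma adjusted p = 0.90). Without CrT+/y animal 2 it was -0.16 (adjusted p = 0.25).

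*Grik3* measured 17.2, 18.4, 16.6 and 19.3 FPKM in CrT-/y animals and 16.7, 18.9 and 17.4 FPKM in CrT+/y animals, with overlapping ranges. The difference was 0.021 (95% interval -0.14 to 0.18, limma adjusted p = 0.89). *Grik1*, the remaining kainate subunit gene, ranged from 3.86 to 4.54 FPKM in CrT-/y animals and from 4.21 to 4.47 FPKM in CrT+/y animals, a difference of -0.050 (adjusted p = 0.74).

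The 4 kainate subunits summed to between 114 and 126 FPKM in CrT-/y animals and between 112.2 and 112.7 FPKM in CrT+/y animals. These sums did not overlap, although each of the 4 genes overlapped between genotypes. The sums were not tested, and 6.57% of single tested genes were separated with CrT-/y higher. *Grik5* made up 62.5 to 66.2% and 59.8 to 65.4% of the sum, respectively. The log2 ratio of *Grik5* to *Grik2* was 2.24 ± 0.052 (SD, n = 4) in CrT-/y animals and 2.15 ± 0.34 (SD, n = 3) in CrT+/y animals. The difference of 0.089 was within the spread (exact permutation test, two-sided, p = 0.80, adjusted p = 0.80). CrT+/y animal 2 had the lowest ratio, 1.76, and without it the difference was -0.11 (exact p = 0.20).

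In bulk tissue, fewer cells of a type and less RNA per cell cannot be told apart, and neither can a different extent of the dissection. Summed levels of marker genes were therefore set beside the subunits. The sum of 8 striatum markers was 99.8 FPKM in CrT+/y animal 1, 175 in CrT+/y animal 3, 192 in CrT-/y animal 3, 253 in CrT-/y animal 2, 373 in CrT-/y animal 0, 401 in CrT+/y animal 2 and 439 in CrT-/y animal 1. In the same order of animals, *Grik2* was 14.1, 14.5, 15.5, 16.1, 16.6, 19.8 and 16.8 FPKM, rising along all but the last. *Grik4* was 8.19, 8.82, 8.01, 7.51, 7.52, 6.39 and 7.32 FPKM, highest in the animals with the least striatal signal. With the striatal sum as a covariate, an alternative chosen after seeing the data, the difference was -0.10 for *Grik2* (limma adjusted p = 0.47) and 0.078 for *Grik4* (adjusted p = 0.66). In that fit *Grin1* was at -0.16 (adjusted p = 0.25) and *Grin2c* at -0.21 (adjusted p = 0.29), and 0 subunits passed by limma at an adjusted p of 0.1 or at an unadjusted p under 0.05.

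**Figure D3:**
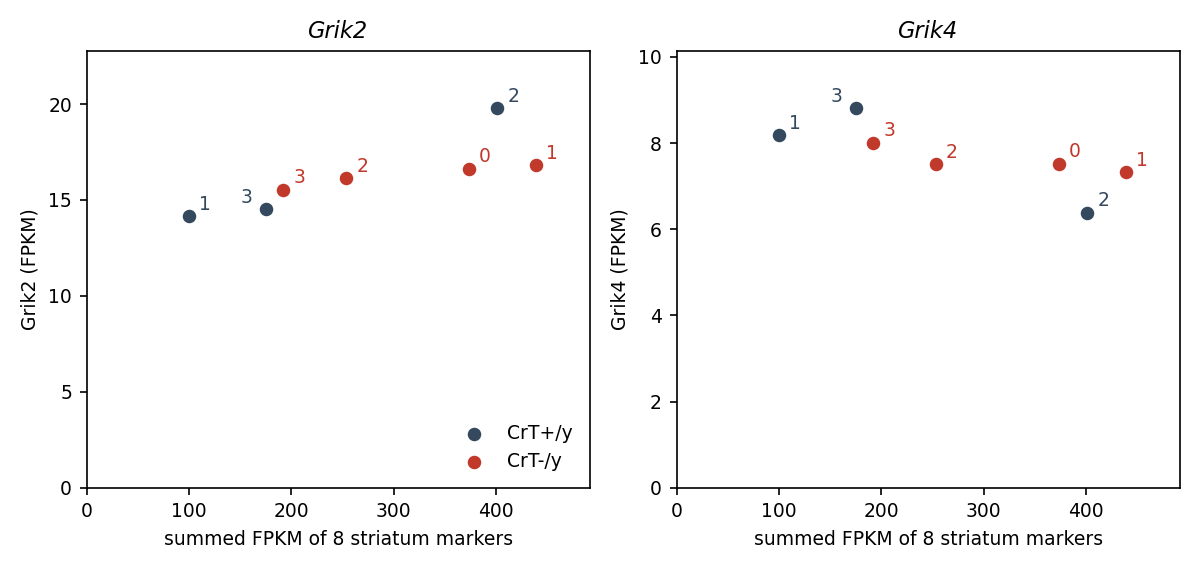
FPKM of *Grik2* and *Grik4* in each animal against the summed FPKM of 8 striatum marker genes, with animal numbers beside the points. CrT+/y animal 2, with a striatal sum of 401 FPKM, has the highest *Grik2* (19.8 FPKM) and the lowest *Grik4* (6.39 FPKM).

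The summed markers overlapped between genotypes in each of the 7 lists of cortical cell types. The excitatory neuron sum was 742 to 829 FPKM in CrT-/y and 744 to 900 FPKM in CrT+/y animals, with 2 of 8 genes called lower. The inhibitory neuron sum was 849 to 988 and 916 to 934 FPKM, with 1 of 7 called higher. Astrocyte markers summed to 354 to 409 and 364 to 415 FPKM, oligodendrocyte markers to 792 to 1209 and 1110 to 1454 FPKM, and microglia markers to 105 to 112 and 108 to 118 FPKM, with none of these 16 genes called by limma. Oligodendrocyte precursor markers summed to 20.5 to 23.8 and 23.6 to 27.7 FPKM, overlapping only through CrT-/y animal 2 (23.8) and CrT+/y animal 3 (23.6). Endothelial markers summed to 55.8 to 70.1 and 67.1 to 77.8 FPKM, with 2 of 4 genes called lower. Beside these counts, 7.25% of all tested genes were called lower and 2.9% higher.

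Markers of tissue next to the cortex varied between animals. Choroid plexus and ependyma markers reached 391 FPKM in CrT+/y animal 2, against 4.25 to 51.7 FPKM in the other animals, with 1 of the 3 tested genes called higher. Olfactory bulb markers averaged 10.8 FPKM in CrT-/y and 5.01 FPKM in CrT+/y animals, with the highest sum, 18.7 FPKM, in CrT-/y animal 1 and 3.71 to 9.66 FPKM elsewhere, also with 1 gene called higher. Hippocampus (3.57 to 8.12 FPKM), thalamus (7.60 to 12.3 FPKM) and cerebellum markers (10.7 to 14.5 FPKM) had no called genes, and *Iyd*, *Gabra6* and *Pcp2* were listed at 0 in some animals. The part of these tissues in the subunit levels was not tested beyond the striatal fit.

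The proteins that anchor, modify and supply these receptors were then examined in 69 partner genes, of which 66 passed the filter on low values (*Dao*, *Shmt1* and *Slc6a5* did not). By limma, 4 were called lower and 0 higher in CrT-/y animals, against 7.25% and 2.9% of all tested genes. At an unadjusted p under 0.05, 13 were lower and 3 higher, 16 of 66 in all, beside 25.0% of all tested genes (2188 lower and 1064 higher of 12988). The median difference was -0.056, against -0.033 over all tested genes. A negative sign was found in 45 of the 66 partner genes and in 7554 of the 12988 tested genes. Without overlap, CrT-/y was lower in 12 of the 66 and higher in 5, beside 15.0% and 6.57% of all tested genes.

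Of the 15 scaffold and trafficking genes, 2 were called lower and 12 had a negative sign. *Dlg1*, which encodes the scaffold SAP97, measured 54.3, 52.1, 49.4 and 49.8 FPKM in CrT-/y and 64.8, 61.3 and 56.1 FPKM in CrT+/y animals, without overlap (difference -0.24, SE 0.064, limma adjusted p = 0.069). *Lin7a*, part of a complex that carries NMDA receptors along dendrites, measured 20.7, 19.7, 20.5 and 19.9 FPKM and 23.8, 22.4 and 22.3 FPKM, also without overlap (difference -0.18, SE 0.053, adjusted p = 0.090).

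Of the 30 kinases, phosphatases and calcium sensors, 1 was called lower and 20 had a negative sign. *Ppp3r1*, the regulatory subunit of the phosphatase calcineurin, measured 479, 458, 462 and 440 FPKM in CrT-/y and 612, 516 and 512 FPKM in CrT+/y animals, without overlap (difference -0.25, SE 0.076, limma adjusted p = 0.0996).

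Of the 11 kainate receptor partners, 1 was called lower and 7 had a negative sign. *Neto2*, an auxiliary subunit that slows the desensitisation of kainate receptors, measured 20.0, 19.4, 17.1 and 16.8 FPKM in CrT-/y and 24.4, 23.4 and 20.2 FPKM in CrT+/y animals, without overlap (difference -0.31, SE 0.088, limma adjusted p = 0.084). CrT-/y animal 0 and CrT+/y animal 3 were nearly equal. Of the 10 tested genes of D-serine and glycine handling, which supply the co-agonists, 0 were called by limma and 0 reached an unadjusted p under 0.05, with 6 negative signs.

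**Figure D4:**
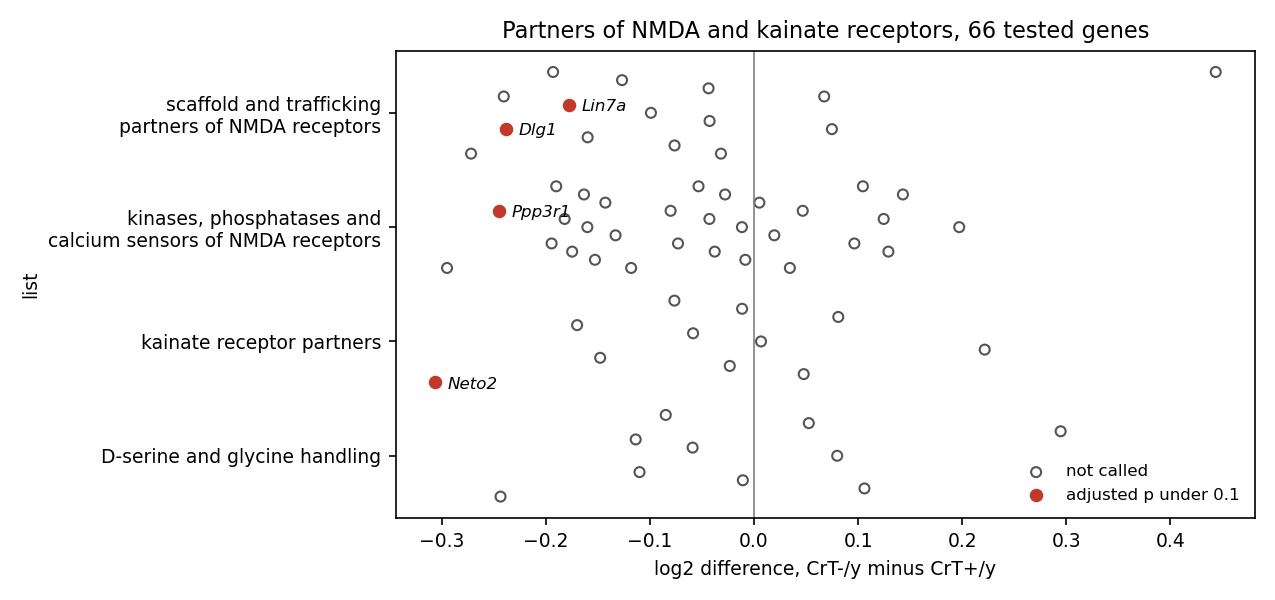
Difference between genotypes, as log2(FPKM + 0.1) in CrT-/y minus CrT+/y, for the 66 tested partner genes in 4 lists. Each circle is a gene (the height within a list only separates them), and filled circles passed a limma adjusted p of 0.1. The 4 filled circles lie between -0.31 and -0.18.

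These 4 calls rested on the fit used. Leaving out any 1 animal other than CrT+/y animal 3 left 0 partner genes called by limma. Over all tested genes, 53 to 509 were then called lower and 11 to 244 higher. Leaving out CrT+/y animal 3 gave 13 partner genes lower and 3 higher, beside 2394 lower and 1342 higher of 12997 tested genes. The study's own list held more genes higher than lower in CrT-/y animals. Of all genes called in the fit used here, 28.6% were higher, and this moved to 61.5% after upper quartile scaling. That scaling gave 4 partner genes higher (*Camk2b*, *Ptk2b*, *Rasgrf1* and *Src*) and 0 lower, beside 741 higher and 463 lower of all 12988 tested genes.

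The genes whose pattern over the 7 animals lay nearest to the subunits with the smallest p-values were found by the root mean square distance between log2 values centred on each gene's mean. For *Grin1* these were *Syvn1*, at a distance of 0.018, *A830010M20Rik* at 0.020 and *Spop* at 0.020, whose own differences were -0.20, -0.19 and -0.18. For *Grin2c* they were *Hcn3*, *Ston2* and *Pvrl1*, at 0.039, 0.039 and 0.040. The greater distances of the latter show that no tested gene followed *Grin2c* as closely as 3 genes followed *Grin1*. Because all these genes were picked by closeness, their differences resemble those of the subunit by selection and are no separate support.

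The differences of the subunits were recomputed under 21 alternatives of processing, model or animals. *Grin1* (from -0.24 to -0.12), *Grin2b* (-0.23 to -0.030) and *Grin2c* (-0.29 to -0.15) were negative in all 21, and *Grin3a* (0.13 to 0.29) and *Grik5* (0.077 to 0.19) positive in all 21. *Grin2a* was negative in 20. *Grin2d* kept its sign in 17 of 20, *Grik2* in 17, *Grik3* in 18 and *Grik4* in 12, so no direction can be given for these 4 genes. The alternatives reuse the same 7 animals, so a kept sign gives no direction by itself. For *Grin2a*, *Grin2b*, *Grin3a* and *Grik5* the 95% intervals included 0, and no direction can be given either. The intervals of *Grin1* and *Grin2c* lay below 0 but are not adjusted for the number of genes, and neither gene was called. With the striatal covariate both intervals included 0 (-0.32 to 0.0049 and -0.45 to 0.028), so no firm direction can be given for these genes.

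**Figure D5:**
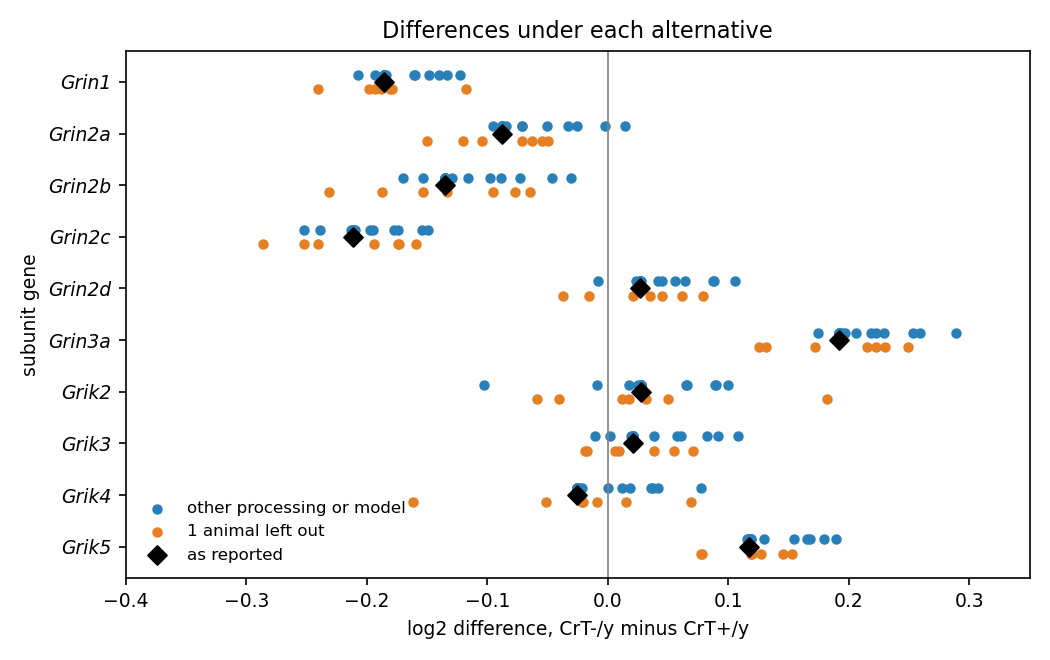
The difference between genotypes for each subunit, as log2(FPKM + 0.1) in CrT-/y minus CrT+/y. Diamonds are the values reported above, upper points other processing or models, and lower points the fits with 1 animal left out. *Grin1*, *Grin2b* and *Grin2c* stay below 0 and *Grin3a* and *Grik5* above 0 in all 21 alternatives, whereas *Grin2a*, *Grin2d*, *Grik2*, *Grik3* and *Grik4* have points on both sides.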

How the data were processed

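Bulk RNA-seq libraries of the cerebral cortex were prepared with a poly(A) kit and read as 150-base paired ends. The authors aligned reads to mm10 with the Tuxedo protocol, kept uniquely aligned reads with at most 2 mismatches, and deposited FPKM per gene and animal. Bowtie and Cuffnorm are named in the submitters' processing notes. Versions and the use of strand are not given in the sources used here. All 7 columns were used (0 left out). The table holds no read counts, so no interval for counting error can be given.

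Genes averaging 1 FPKM or more over the animals entered the test, made on log2(FPKM + 0.1) with limma 3.58.1 in R 4.3.3 (eBayes with trend, genotype alone as term), with Benjamini-Hochberg adjustment over all tested genes and a threshold of 0.1. A pseudocount understates changes of low genes. Ratios were compared by exact permutation tests, and scipy 1.17.1 gave the adjustment over the 2 ratios. The fit was tested on simulated data. Alternatives changed the pseudocount, filter, scaling, length trend, model and animals. Separate animals are replicates within a genotype. Named genes are the 10 subunits, the remaining 2 subunits, *Slc6a8*, partner genes past the threshold (at most 5 per list), marker lists, and the 3 nearest genes in pattern for the 2 subunits with the smallest p. Genes at 0 in all animals numbered 5246. Subunits and lists were chosen with earlier results of these data known. Symbols were matched to GENCODE names for positions and lengths (23310 directly, 666 by synonym, 370 unmatched).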

Additional observations from a re-analysis of the deposited data

How the results depend on the processing

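In this section, as reported means the fit described above and not the gene list of the study. Of the 10 subunits, 0 were called higher by limma under any of the 21 alternatives. Called lower were 1 with array weights (*Grin1*), 0 to 2 with 1 animal left out, the 2 being *Grin1* and *Grin2c* without CrT+/y animal 3, and 0 under all others. Partner genes called lower, 4 as reported, numbered 0 with no filter on low values, upper quartile scaling, median centring, eBayes without trend and the striatal covariate, 1 after quantile normalization, 2 with a minimum of 0.1 FPKM or length correction, 9 with array weights and 0 to 13 with 1 animal left out. Partner genes called higher numbered 1 with a minimum of 5 FPKM or median centring, 2 after quantile normalization or with array weights, 4 after upper quartile scaling or length correction, and 0 to 3 with 1 animal left out. A minimum of 5 FPKM removed *Grin2d*. Over all tested genes, calls with 1 animal left out ran from 53 lower and 11 higher to 2394 lower and 1342 higher. With array weights they were 1295 lower and 602 higher. The cause of these changes was not tested. The share of called genes that were higher, 28.6% as reported, was 48.8% after quantile normalization, 48.2% after median centring and 46.6% after length correction.

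Animals of equal number did not deviate together (r = -0.078, 0.046 and -0.051 for numbers 1, 2 and 3). Animals of unequal number ran from r = -0.20 to 0.25, so these correlations cannot decide whether the numbers pair littermates. With the replicate block, 0 subunits, 1 partner gene lower (*Neto2*) and 410 genes lower and 166 higher overall were called, and with the block and length correction 0 subunits, 0 partner genes, 202 lower and 127 higher. In the paired fits the ratio of *Grin2b* to *Grin2a* differed by -0.083 and that of *Grik5* to *Grik2* by 0.10. The ratios ranged with 1 animal left out from -0.083 to -0.010 and from -0.11 to 0.21.

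No subunit was called as reported, and signs turned for *Grin2a*, *Grin2d*, *Grik2*, *Grik3*, *Grik4* and *Grik1*. *Grin2a* was 0.015 with the block and length correction. *Grin2d* was -0.0079 and *Grik2* -0.0093 with array weights, *Grik2* -0.10 and *Grik3* -0.011 with the striatal covariate. With 1 animal left out, *Grin2d* ran from -0.037 to 0.079, *Grik2* from -0.059 to 0.18, *Grik3* from -0.019 to 0.071 and *Grik4* from -0.16 to 0.069. *Grik4* was 0.00028 after quantile normalization, 0.036 after upper quartile scaling, 0.011 after median centring, 0.038 after length correction, 0.018 with array weights, 0.042 with the block and length correction and 0.078 with the striatal covariate. *Grik1* was 0.010 after upper quartile scaling and 0.0044 with the block and length correction.

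The 4 partner genes called as reported kept a negative sign in all 21 alternatives. Their call was kept in 7 (*Dlg1*), 5 (*Lin7a*), 7 (*Neto2*) and 6 (*Ppp3r1*). They were picked by that call in the same animals, so the kept sign is no separate support. *Grin1os* was positive in the 20 that tested it and called in 5. With 3 and 4 animals, no 95% interval for a subunit was narrower than that of *Grin1* (-0.33 to -0.041).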
